A study of Mus musculus with 34 samples.

Results

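The enzymes of glycolysis, of pyruvate metabolism and of the tricarboxylic acid (TCA) cycle were followed through the cortex of mice of 4 genotypes at 15 weeks of age. The set was a list of 40 genes, taken by gene symbol from the annotation of the array, and each gene was represented by its brightest probe set, judged by the mean of all 34 arrays. Of the 40 genes, 37 were measured in this way, among 18193 genes that the array named by a single symbol. Gpi1 and Eno1 had no probe set that carried their symbol alone, and Gapdh was present only on 3 probe sets that carried several symbols, so these 3 genes were not analysed here. All 37 measured genes had a mean level above the median feature of the array.

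The study asked whether lowering histone deacetylase 4 (HDAC4) alters the course of Huntington's disease in a mouse model, and its arrays compared total RNA of snap-frozen cortex on Affymetrix mouse whole-genome arrays. Dble::R6/2 mice (9 arrays) carried the R6/2 transgene and were heterozygous for a knock-out of Hdac4. R6/2 mice (9 arrays) carried the transgene with both Hdac4 alleles intact. Hdac4HET mice (8 arrays) were heterozygous for the Hdac4 knock-out without the transgene, and WT mice (8 arrays) had neither. The R6/2 transgene encodes the first exon of human huntingtin with an expanded CAG repeat under the human promoter, so it models a fragment of the mutant protein expressed beside both mouse huntingtin alleles, and it was carried on a mixed CBA and C57BL/6 background. R6/2 males were crossed with Hdac4HET females to give all 4 genotypes. Each array is treated as a separate mouse, as the labels give them.

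Glycolysis splits glucose to pyruvate in the cytosol. Lactate dehydrogenase converts pyruvate to lactate and back, and the pyruvate dehydrogenase complex carries pyruvate into the mitochondrion's TCA cycle as acetyl-CoA. Pyruvate dehydrogenase kinases switch that complex off by phosphorylation, and the phosphatases switch it on. In the brain, neurons and astrocytes divide this work, with Eno2 known as a neuronal enolase and Aldoc as an aldolase of astrocytes.

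All values below are log2 signals as deposited, where a difference of 1 is a doubling in signal, and a change is the mean of one genotype minus that of another with its standard error (SE). A probe set was called when its adjusted p was at or below 0.05 (limma, Benjamini-Hochberg over all 45037 probe sets). Signals of different probe sets were not compared as amounts of RNA. In whole cortex, fewer cells of a type and less RNA per cell cannot be told apart.

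The arrays had medians between 5.44 and 5.52, and the lowest correlation between arrays of a genotype was 0.973. Hdac4 itself was lower in the heterozygous groups on its brightest probe set, with medians of 7.54 in Dble::R6/2, 7.58 in Hdac4HET, 7.94 in R6/2 and 8.08 in WT cortex. It was lower in Hdac4HET than in WT mice on each of its 3 probe sets (changes of -0.48, -0.51 and -0.36). The third was also lower in R6/2 than in WT mice (-0.39, adjusted p = 0.00449), where both Hdac4 alleles are intact. In Dble::R6/2 against R6/2 mice 1 of the 3 passed the test (-0.61, adjusted p = 0.00033), and the third changed by -0.08. Some arrays carried transcripts of other tissues. In 4 arrays (WT replicates 2, 6 and 7 and Hdac4HET replicate 1) the pituitary hormone gene Prl was above 8, R6/2 replicate 2 averaged 6.90 over 6 epidermal markers, where the other R6/2 arrays averaged 5.72 to 5.93, and Hdac4HET replicate 7 averaged 6.72 over 6 skeletal muscle markers, where the other Hdac4HET arrays averaged 4.51 to 4.68. Dble::R6/2 replicates 4, 8 and 9 averaged 7.80, 8.48 and 7.88 over 4 choroid plexus markers, where the highest array of any other genotype averaged 7.06. The sex given in the labels differed from the reading of Xist in 15 of the 34 arrays.

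The transgene moved individual enzymes by small amounts and in both directions. In R6/2 against WT cortex, 12 of the 37 enzymes were called (32.4%), 7 higher and 5 lower, where 26.9% of all probe sets were called (14.9% higher and 12.0% lower). In Dble::R6/2 against Hdac4HET cortex, 8 enzymes were called (21.6%), 3 higher and 5 lower, where 23.1% of all probe sets were called (13.2% higher and 9.98% lower). Among the brighter probe sets, those above the median mean level, 41.5% were called in R6/2 against WT mice and 36.9% in Dble::R6/2 against Hdac4HET mice. The share of enzymes called lay near that of the whole array in both comparisons and below that of the brighter probe sets. Their median change was -0.06 in R6/2 against WT mice and 0.01 in Dble::R6/2 against Hdac4HET mice, where all probe sets had medians of 0.01 and 0.01. The median size of change, regardless of sign, was 0.12 in R6/2 against WT mice both over the enzymes and over all probe sets, and 0.11 in Dble::R6/2 against Hdac4HET mice over both.

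On these brightest probe sets, 0 of the 37 enzymes were called with a change above 30% in R6/2 against WT cortex, where 6299 of all 45037 probe sets and 21.9% of the brighter ones were. Pdk3 was the 1 enzyme called with such a change in Dble::R6/2 against Hdac4HET cortex, where 4870 probe sets were (10.8%). Dimmer probe sets of some enzymes changed by more and are given further on. The largest decrease in R6/2 against WT mice was -0.37 (Pfkm) and the largest increase 0.33 (Dlat). The enzymes varied little between mice of a genotype, with a median within-genotype SD of 0.12 against 0.17 over all probe sets. The most variable were Pdk2 (SD 0.43), Dld (SD 0.33) and Idh3a (SD 0.25).

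Without the 4 arrays high in Prl, which left 5 WT mice, 4 of the 12 calls in R6/2 against WT mice were kept (Aldoc and Ldha lower, Mdh2 and Pdk3 higher), and 17.9% of all probe sets were called. The 8 that no longer passed kept their direction, with changes of 0.17 for Hk1, Pfkp and Idh3g, 0.16 for Cs, 0.26 for Dlat, -0.18 for Eno2, -0.35 for Pfkm and -0.10 for Idh3b. The part of the pituitary transcripts and of the smaller number of mice in this loss was not tested. Without the 3 Dble::R6/2 arrays high in choroid plexus markers, 7 of the 8 calls in Dble::R6/2 against Hdac4HET mice were kept, and Mdh2 was not called (0.15, adjusted p = 0.0603). Of all probe sets 19.0% were called there.

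**Figure D1:**
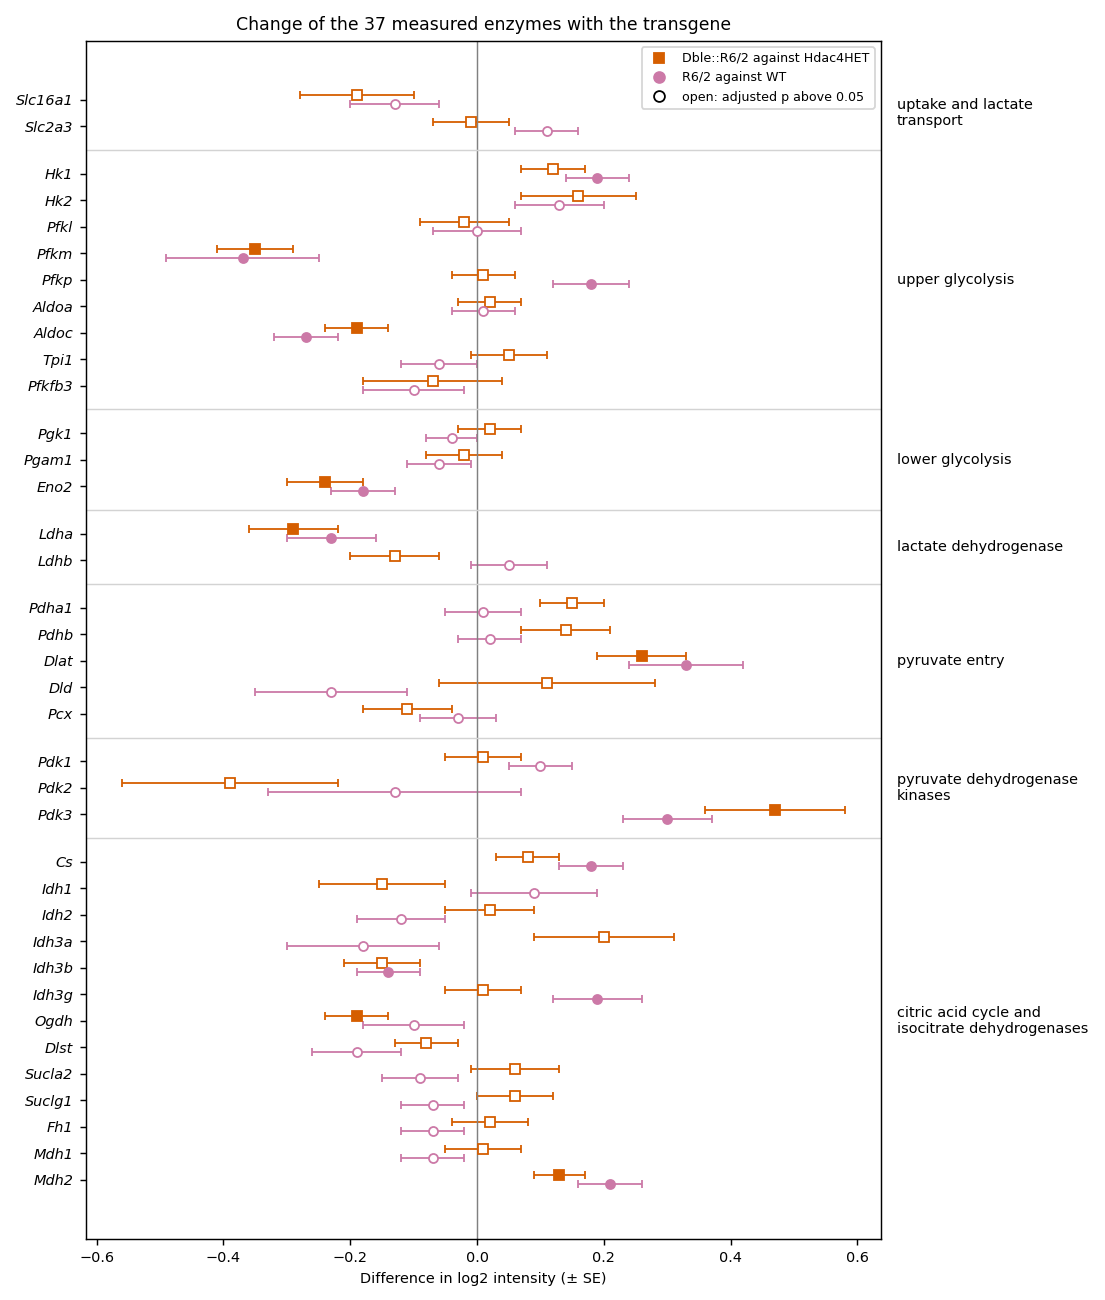
Change of each of the 37 enzymes (log2, rows grouped by role) in Dble::R6/2 against Hdac4HET and in R6/2 against WT cortex, with the SE as bars and filled points where the enzyme was called. Among the called enzymes, Pfkm and Pdk3 lie farthest from 0 in Dble::R6/2 mice, at -0.35 and 0.47, and in R6/2 mice they lie at -0.37 and 0.30.

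There were 7 enzymes called in the same direction in both comparisons, which share no mice (18.9% of the 37), where 15.9% of all probe sets and 26.6% of the brighter probe sets were. They were 7 of the 12 called in R6/2 against WT and 7 of the 8 called in Dble::R6/2 against Hdac4HET cortex. Pfkm, Aldoc, Eno2 and Ldha were lower, and Dlat, Mdh2 and Pdk3 were higher. The other 5 enzymes called in R6/2 against WT mice (Hk1, Pfkp, Cs, Idh3b and Idh3g) kept their sign in Dble::R6/2 against Hdac4HET mice without passing the test, and Ogdh was called in Dble::R6/2 against Hdac4HET mice but not in R6/2 against WT mice. Over all 37 enzymes the sign was the same in 25, and the matching share of all probe sets was not counted. None of the 37 differed between the 2 comparisons when the difference itself was tested over all 4 genotypes, where 0.00222% of all probe sets did. Before adjustment that test picked 2 enzymes at 0.05 (5.41%), where it picked 9.87% of all probe sets, Pfkp (-0.17, adjusted p = 0.424) and Idh3a (0.39, adjusted p = 0.436).

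The promoters of Pfkm and Ldha (lower with the transgene on both Hdac4 backgrounds) and of Mdh2 and Pdk3 (higher on both) are shown. They are a choice from the 7 enzymes called in the same direction in both comparisons. Those of Aldoc, Eno2 and Dlat are not printed. Each run covers 250 bases before and 50 after a transcription start of RefSeq on GRCm38.p6, read along the gene's strand, and 35 of the 37 enzymes had such a window (53 windows in all). Where a gene had several windows, the one with the most matches is printed. Capitals mark matches on either strand to ACGTG (the core of a hypoxia response element), GGGCGG (a GC box) and TGACGTCA (a cyclic AMP response element), and CACGTG counts once on each strand.
Pfkm, chr15:98092339-98092638, plus strand: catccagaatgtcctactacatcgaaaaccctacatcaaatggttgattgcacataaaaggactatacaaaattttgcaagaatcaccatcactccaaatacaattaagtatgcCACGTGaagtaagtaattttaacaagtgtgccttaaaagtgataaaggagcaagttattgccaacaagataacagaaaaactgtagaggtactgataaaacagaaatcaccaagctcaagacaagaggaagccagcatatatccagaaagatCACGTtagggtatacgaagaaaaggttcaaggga
Ldha, chr7:46845554-46845853, plus strand: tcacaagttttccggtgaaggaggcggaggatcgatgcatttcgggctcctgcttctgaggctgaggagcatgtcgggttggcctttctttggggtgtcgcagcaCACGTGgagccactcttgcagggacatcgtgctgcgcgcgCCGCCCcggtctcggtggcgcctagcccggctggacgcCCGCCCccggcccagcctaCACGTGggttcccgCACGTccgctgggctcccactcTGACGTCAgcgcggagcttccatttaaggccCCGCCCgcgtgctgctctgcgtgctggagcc
Mdh2, chr5:135778399-135778698, plus strand: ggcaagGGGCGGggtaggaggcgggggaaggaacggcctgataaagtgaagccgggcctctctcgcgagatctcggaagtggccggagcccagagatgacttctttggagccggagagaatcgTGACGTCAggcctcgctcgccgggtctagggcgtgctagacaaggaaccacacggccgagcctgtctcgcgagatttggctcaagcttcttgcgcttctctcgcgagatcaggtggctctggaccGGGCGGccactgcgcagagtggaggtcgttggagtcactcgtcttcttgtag
Pdk3, chrX:93832101-93832400, minus strand: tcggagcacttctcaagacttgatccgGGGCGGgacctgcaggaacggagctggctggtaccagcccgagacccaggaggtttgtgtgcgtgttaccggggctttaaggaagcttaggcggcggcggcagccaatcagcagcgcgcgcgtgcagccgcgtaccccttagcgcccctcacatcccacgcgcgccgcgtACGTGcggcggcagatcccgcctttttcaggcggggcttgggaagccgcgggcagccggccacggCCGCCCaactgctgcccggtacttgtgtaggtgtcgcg

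ACGTG was found in 25 of the 53 enzyme windows (47.2%) and in 19.6% of all 32851 windows of the same length. GGGCGG was in 31 enzyme windows (58.5%) and in 35.7% of all windows, and TGACGTCA was in 5 (9.43%), those of Ldha, Ogdh and Mdh2, and in 1.79% of all. TCAAGGTCA, an oestrogen-related receptor element, was in 0 of the 53 and in 0.423% of all windows. Windows of 1 gene can overlap and then count the same site more than once, as for Ogdh with 6 windows. By gene, ACGTG was in 17, GGGCGG in 25 and TGACGTCA in 3 of the 35 enzymes with a window. The matching share of all genes was not counted. The 4 printed promoters differ in their matches. Those of Ldha and Mdh2 hold TGACGTCA, although Ldha was lower and Mdh2 higher in the transgenic mice. The printed windows of Pfkm and Ldha hold a CACGTG, but they were chosen for their number of matches. Of the 4 Pfkm windows only the printed one holds CACGTG, and windows 3 and 4 hold no match. Of the promoters not printed, that of Eno2 holds no match, that of Dlat 1 GGGCGG, and those of Aldoc 1 GGGCGG and 1 ACGTG.

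Neither of the 2 transporters was called on its brightest probe set. Slc2a3, the neuronal glucose transporter GLUT3, changed by 0.11 (95% confidence interval 0.01 to 0.21, adjusted p = 0.111) in R6/2 against WT mice and by -0.01 (-0.13 to 0.11) in Dble::R6/2 against Hdac4HET mice. Slc16a1, the lactate and pyruvate carrier MCT1, changed by -0.13 (-0.28 to 0.03, adjusted p = 0.228) in R6/2 against WT mice and by -0.19 (-0.37 to -0.01, adjusted p = 0.129) in Dble::R6/2 against Hdac4HET mice.

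Of the 9 genes of upper glycolysis, 2 were higher and 2 lower in R6/2 against WT cortex, and 0 were higher and 2 lower in Dble::R6/2 against Hdac4HET cortex. Pfkm encodes the muscle-type subunit of phosphofructokinase, the committing enzyme of glycolysis, and fell furthest of the 37 enzymes in R6/2 against WT mice. Its lowest, median and highest arrays read 10.65, 10.86 and 10.98 in Dble::R6/2 mice and 11.01, 11.18 and 11.32 in Hdac4HET mice. In R6/2 mice they read 9.98, 10.90 and 11.08, and in WT mice 11.05, 11.17 and 11.40. The 9 Dble::R6/2 arrays all lay below the 8 Hdac4HET arrays, whereas R6/2 and WT arrays overlapped, with 7 of 9 R6/2 arrays below every WT array. The change was -0.35 (SE 0.06, adjusted p = 0.000208) in Dble::R6/2 against Hdac4HET mice, a signal of 78.6% of that in Hdac4HET. It was -0.37 (SE 0.12, adjusted p = 0.0253) in R6/2 against WT mice, 77.6% of WT.

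The lowest R6/2 value of Pfkm came from replicate 2, the array with epidermal transcripts, and without it the change was -0.26 (adjusted p = 0.00513). The call in R6/2 against WT mice was lost without WT replicate 5 or WT replicate 6, with an adjusted p of up to 0.0524, and without the 4 arrays high in Prl (-0.35, adjusted p = 0.115). Without Hdac4HET replicate 7, which carried muscle transcripts, the change in Dble::R6/2 mice was -0.37 (adjusted p = 0.00015).

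On their brightest probe sets, the liver-type and platelet-type subunits did not follow Pfkm. Pfkl changed by -0.00 (95% confidence interval -0.16 to 0.15) in R6/2 against WT and by -0.02 (-0.17 to 0.13) in Dble::R6/2 against Hdac4HET mice. Pfkp rose by 0.18 (SE 0.06, adjusted p = 0.0184) in R6/2 against WT mice, with medians of 10.88 in R6/2 and 10.71 in WT mice, and its change in Dble::R6/2 against Hdac4HET mice was 0.01 (-0.10 to 0.12). Pfkfb3, which makes the activator of phosphofructokinase, changed by -0.10 (-0.26 to 0.07) in R6/2 against WT mice and by -0.07 (-0.29 to 0.16) in Dble::R6/2 against Hdac4HET mice.

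Aldoc, the brain aldolase that is richest in astrocytes, fell by 0.19 in Dble::R6/2 against Hdac4HET mice (SE 0.05, adjusted p = 0.00688) and by 0.27 in R6/2 against WT mice (SE 0.05, adjusted p = 0.000206). Its arrays spanned 12.62 to 12.93 in Dble::R6/2 and 12.94 to 13.11 in Hdac4HET mice, and 12.69 to 12.90 in R6/2 and 12.99 to 13.14 in WT mice. The groups did not overlap in either comparison on this probe set. The second probe set of Aldoc, at a mean of 8.64, changed by 0.03 (adjusted p = 0.896) in R6/2 against WT mice. In Dble::R6/2 against Hdac4HET mice it changed by -0.06 (adjusted p = 0.783). Aldoa, the aldolase of muscle and most other tissues, changed by 0.01 (95% confidence interval -0.09 to 0.11) in R6/2 against WT mice and by 0.02 (-0.09 to 0.12) in Dble::R6/2 against Hdac4HET mice. Hk1, the main brain hexokinase, rose by 0.19 in R6/2 against WT mice (SE 0.05, adjusted p = 0.014) and changed by 0.12 in Dble::R6/2 against Hdac4HET mice (SE 0.05, adjusted p = 0.0963). Hk2, the inducible hexokinase and the dimmest of the 37 at a mean of 5.69, changed by 0.13 in R6/2 against WT and by 0.16 in Dble::R6/2 against Hdac4HET mice, with adjusted p-values of 0.222 and 0.22. Tpi1, triose phosphate isomerase, was not called in either comparison.

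**Figure D2:**
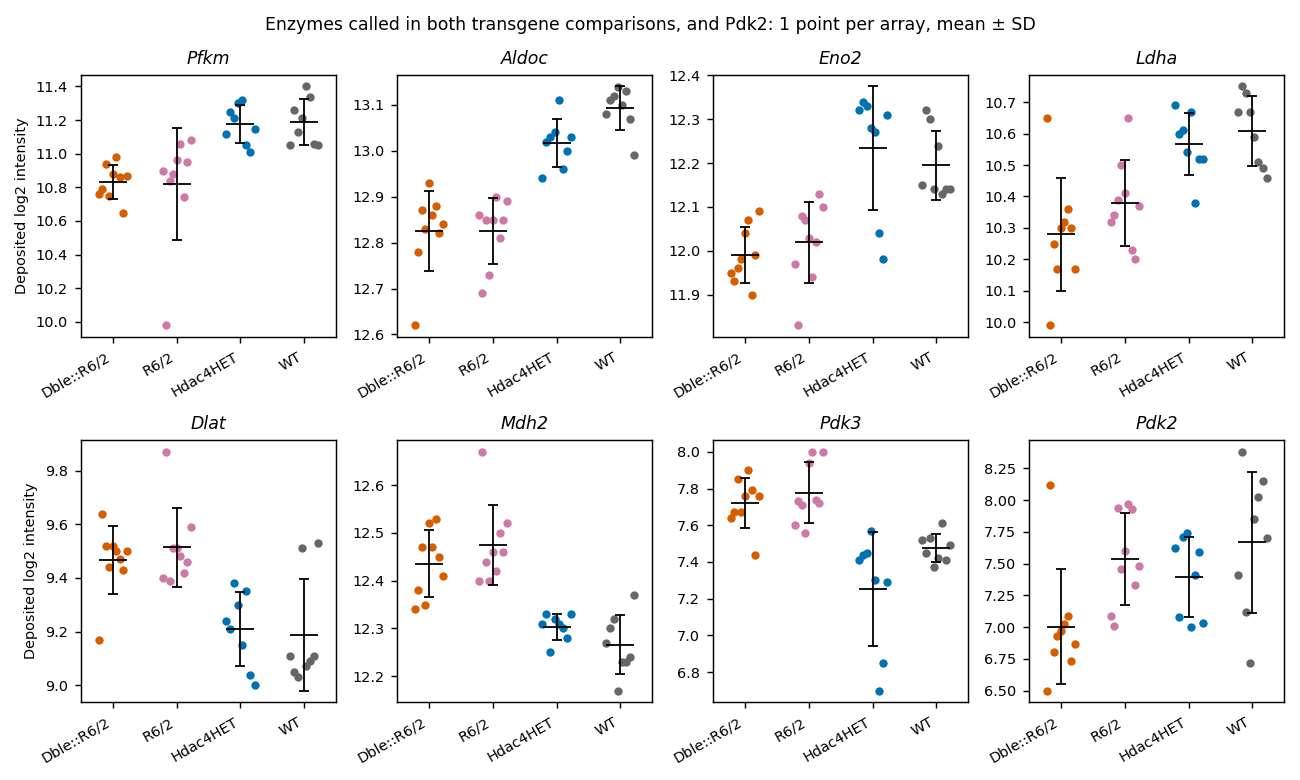
Log2 signal in every array (1 point each) for the 7 enzymes called in the same direction in both transgene comparisons and for Pdk2, by genotype (Dble::R6/2, R6/2, Hdac4HET, WT), where black lines give the group mean ± SD. The Dble::R6/2 and Hdac4HET arrays of Pfkm do not overlap, and the single low R6/2 array of Pfkm at 9.98 is replicate 2.

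In the lower part of glycolysis, 1 of 3 genes was called in each transgene comparison. Eno2, the neuronal enolase, fell by 0.24 in Dble::R6/2 against Hdac4HET mice (SE 0.06, adjusted p = 0.00448) and by 0.18 in R6/2 against WT mice (SE 0.05, adjusted p = 0.0159). It read 11.90 to 12.09 in Dble::R6/2 and 11.98 to 12.34 in Hdac4HET mice, where the groups overlapped, and 11.83 to 12.13 in R6/2 and 12.13 to 12.32 in WT mice, where they touched at 12.13 without overlapping. Pgk1, phosphoglycerate kinase, and Pgam1, phosphoglycerate mutase, changed by between -0.06 and 0.02 in these 2 comparisons and were not called.

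Ldha, whose subunit favours lactate production, fell by 0.29 in Dble::R6/2 against Hdac4HET mice (SE 0.07, adjusted p = 0.00606) and by 0.23 in R6/2 against WT mice (SE 0.07, adjusted p = 0.0122). It read 9.99 to 10.65 with a median of 10.30 in Dble::R6/2 and 10.38 to 10.69 with a median of 10.57 in Hdac4HET mice. In R6/2 mice it read 10.20 to 10.65 with a median of 10.37, and in WT mice 10.46 to 10.75 with a median of 10.63. The groups overlapped in both comparisons, with 8 of 9 Dble::R6/2 and 7 of 9 R6/2 arrays below all arrays of their controls. Ldhb, whose subunit favours the use of lactate, changed by -0.13 (95% confidence interval -0.27 to 0.01, adjusted p = 0.201) in Dble::R6/2 against Hdac4HET mice and by 0.05 (-0.08 to 0.19, adjusted p = 0.619) in R6/2 against WT mice. Its 3 dimmer probe sets changed by -0.14, -0.16 and -0.12 in Dble::R6/2 against Hdac4HET mice, where the probe set at -0.16 was called lower (adjusted p = 0.0422), and by -0.10, -0.15 and -0.09 in R6/2 against WT mice, where none was called.

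At the entry of pyruvate into the TCA cycle, 1 of 5 genes was called in each comparison. Dlat, the acetyltransferase core of the pyruvate dehydrogenase complex, rose by 0.26 in Dble::R6/2 against Hdac4HET mice (SE 0.07, adjusted p = 0.00823) and by 0.33 in R6/2 against WT mice (SE 0.09, adjusted p = 0.00734). It read 9.17 to 9.64 in Dble::R6/2 and 9.00 to 9.38 in Hdac4HET mice, and 9.39 to 9.87 in R6/2 and 9.03 to 9.53 in WT mice. Its 3 probe sets did not move alike, as described below. Pdha1 and Pdhb, the subunits of the dehydrogenase itself, changed by 0.15 (adjusted p = 0.0508) and 0.14 (adjusted p = 0.134) in Dble::R6/2 against Hdac4HET mice and by 0.01 and 0.02 in R6/2 against WT mice. Dld, the dihydrolipoamide dehydrogenase shared with the oxoglutarate dehydrogenase complex, and Pcx, pyruvate carboxylase, were not called in either.

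Among the 3 pyruvate dehydrogenase kinases, Pdk3 was called in both comparisons and had the largest increase of any of the 37 enzymes in Dble::R6/2 against Hdac4HET mice. Its lowest, median and highest arrays read 7.44, 7.76 and 7.90 in Dble::R6/2 mice and 6.70, 7.36 and 7.57 in Hdac4HET mice. In R6/2 mice they read 7.56, 7.73 and 8.00, and in WT mice 7.37, 7.47 and 7.61. Of the 9 Dble::R6/2 arrays, 8 exceeded every Hdac4HET array, and 7 of 9 R6/2 arrays lay above every WT array. The change was 0.47 (SE 0.11, adjusted p = 0.00277) in Dble::R6/2 against Hdac4HET mice, a 1.38-fold signal, and 0.30 (SE 0.07, adjusted p = 0.00223) in R6/2 against WT mice, a 1.23-fold signal. The difference between these 2 changes was 0.17 (SE 0.13, adjusted p = 0.708). Pdk3 was not higher in Dble::R6/2 than in R6/2 mice, with means of 7.72 and 7.78 (change -0.06, adjusted p = 0.949). Its mean was 7.25 in Hdac4HET against 7.48 in WT mice (change -0.22, adjusted p = 0.23). Pdk1 and Pdk2 were not called. Pdk2 changed by -0.39 (95% confidence interval -0.75 to -0.03, adjusted p = 0.119) in Dble::R6/2 against Hdac4HET mice and by -0.13 (-0.56 to 0.29, adjusted p = 0.706) in R6/2 against WT mice.

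Of the 13 genes of the TCA cycle and its isocitrate dehydrogenases, 3 were higher and 1 lower in R6/2 against WT cortex, and 1 was higher and 1 lower in Dble::R6/2 against Hdac4HET cortex. Mdh2, the mitochondrial malate dehydrogenase, rose by 0.13 in Dble::R6/2 against Hdac4HET mice (SE 0.04, adjusted p = 0.0356) and by 0.21 in R6/2 against WT mice (SE 0.05, adjusted p = 0.00343). It read 12.34 to 12.53 in Dble::R6/2 and 12.25 to 12.33 in Hdac4HET mice, and 12.40 to 12.67 in R6/2 and 12.17 to 12.37 in WT mice, and the groups overlapped in neither comparison. Its call in Dble::R6/2 mice was lost in 10 of 17 fits that each left out 1 array, with changes of 0.12 to 0.14 and adjusted p-values of up to 0.0681. Mdh1, the cytosolic malate dehydrogenase, changed by -0.07 (95% confidence interval -0.16 to 0.03) in R6/2 against WT mice and by 0.01 (-0.12 to 0.13) in Dble::R6/2 against Hdac4HET mice.

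Cs, citrate synthase, which opens the cycle, rose by 0.18 in R6/2 against WT mice (SE 0.05, adjusted p = 0.0167), where the R6/2 arrays (11.20 to 11.53) did not overlap the WT arrays (10.96 to 11.20), touching at 11.20. In Dble::R6/2 against Hdac4HET mice its change was 0.08 (SE 0.05, adjusted p = 0.261). Of the 3 subunits of the NAD-dependent isocitrate dehydrogenase in R6/2 against WT mice, Idh3g rose by 0.19 (SE 0.07, adjusted p = 0.0466), Idh3b fell by 0.14 (SE 0.05, adjusted p = 0.0317) and Idh3a changed by -0.18 (SE 0.12, adjusted p = 0.3) on its brightest probe set. The second and the third probe sets of Idh3a were called higher, by 0.27 (adjusted p = 0.0413) and 0.28 (adjusted p = 0.00208). The second probe set of Idh3g changed by -0.12 (adjusted p = 0.188) and that of Idh3b by 0.00 (adjusted p = 0.985). On the brightest probe sets, the changes in Dble::R6/2 against Hdac4HET mice were 0.01 for Idh3g, -0.15 for Idh3b and 0.20 for Idh3a, and none was called. In R6/2 against WT mice the call of Idh3g was lost in 10 and that of Idh3b in 7 of the 17 fits that left out 1 array, with adjusted p-values of up to 0.0947 and 0.0712. The call of Idh3g was also lost with sex as a covariate, both from the labels and read from Xist. Ogdh, the first component of the oxoglutarate dehydrogenase complex, fell by 0.19 in Dble::R6/2 against Hdac4HET mice (SE 0.05, adjusted p = 0.0137) and changed by -0.10 in R6/2 against WT mice (SE 0.08, adjusted p = 0.405). Its medians were 9.82 in Dble::R6/2, 9.69 in R6/2, 9.99 in Hdac4HET and 9.79 in WT mice.

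Dlst, the second component of that complex, changed by -0.19 in R6/2 against WT mice (SE 0.07, adjusted p = 0.0633) and by -0.08 in Dble::R6/2 against Hdac4HET mice (SE 0.05, adjusted p = 0.29). Idh1 and Idh2, the NADP-dependent isocitrate dehydrogenases, Sucla2 and Suclg1, subunits of succinyl-CoA ligase, and Fh1, fumarase, were called in neither comparison on their brightest probe sets, with changes of -0.15 to 0.09.

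**Figure D3:**
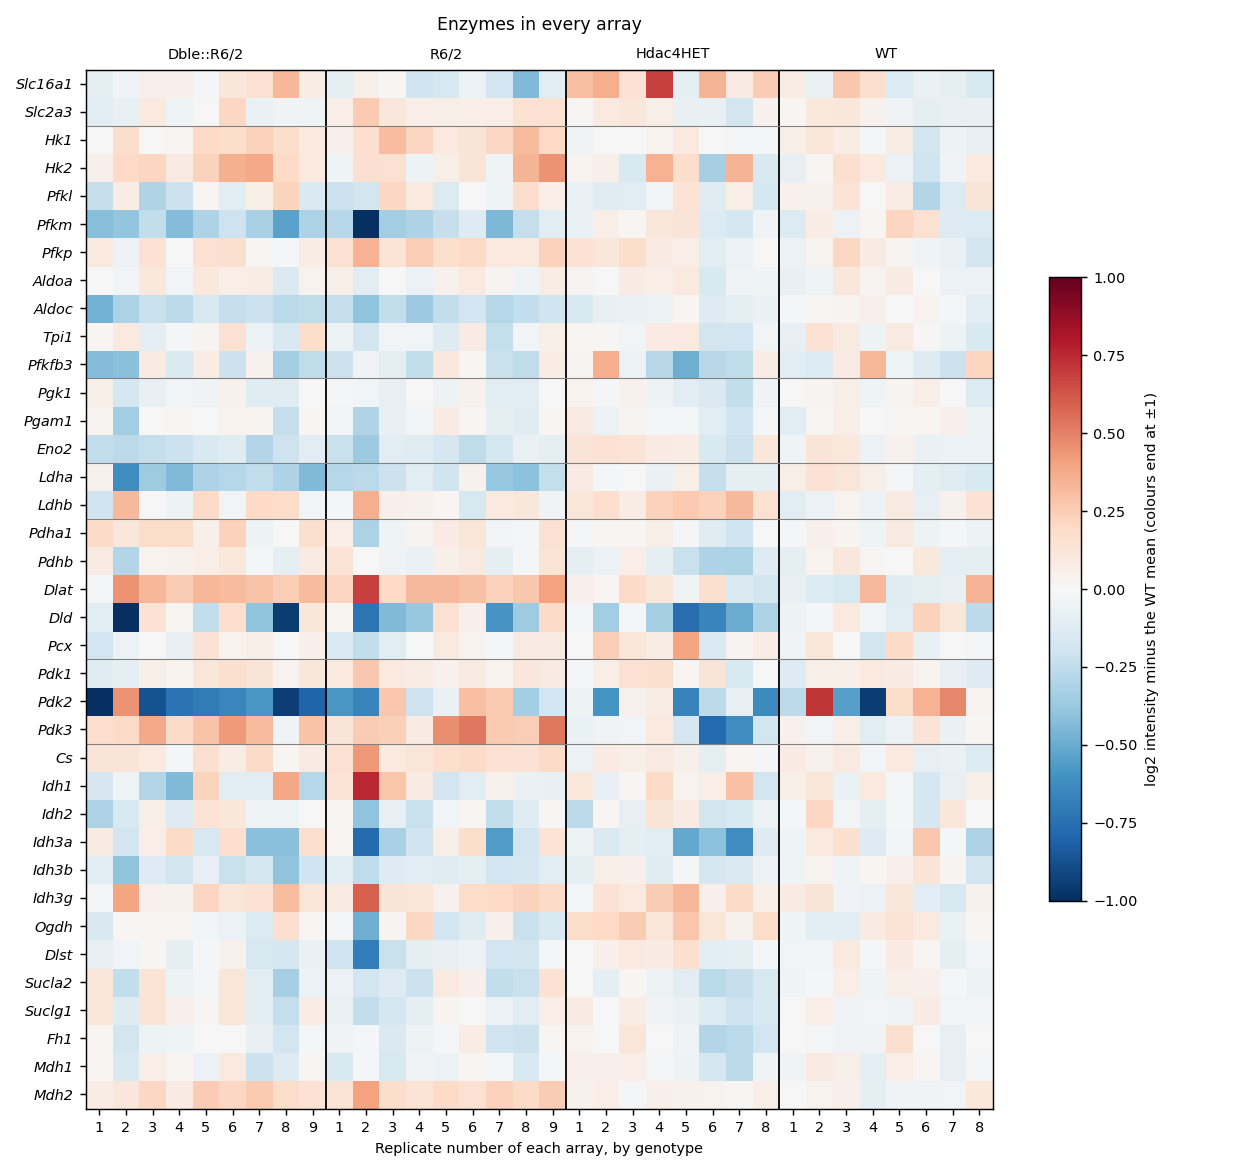
Log2 signal of each enzyme in each of the 34 arrays minus that enzyme's mean in WT mice (colour, ending at 1 in either direction, with rows by role and columns by genotype in the order Dble::R6/2, R6/2, Hdac4HET, WT). Pfkm and Aldoc are low and Mdh2 and Pdk3 high across most transgenic arrays, and R6/2 replicate 2 stands out within its genotype.

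The loss of 1 Hdac4 allele in mice without the transgene moved 2 of the 37 enzymes past the threshold (5.41%), 1 higher and 1 lower, where 3.91% of all probe sets were called (1.67% higher and 2.23% lower). Ldhb read 12.27, 12.40 and 12.52 at its lowest, median and highest in Hdac4HET mice and 12.09, 12.19 and 12.34 in WT mice. It was higher by 0.19 (SE 0.05, adjusted p = 0.0489), with 6 of 8 Hdac4HET arrays above all WT arrays. Dld read 8.26, 8.68 and 9.00 in Hdac4HET mice and 8.76, 9.00 and 9.25 in WT mice. It was lower by 0.37 on the log2 scale (change -0.37, SE 0.10, adjusted p = 0.0497), with 6 of 8 Hdac4HET arrays below all WT arrays. Both calls were near the threshold, and each was lost in 13 of 16 fits that left out 1 array and without the 4 arrays high in Prl (adjusted p = 0.244 for Ldhb and 0.223 for Dld). At an unadjusted p below 0.05, 9 enzymes passed, where 21.4% of all probe sets did. The share of all probe sets called in this comparison depended on the setting too. It was 0.0111% without the 4 arrays high in Prl, 0.0488% with sex read from Xist and 0.384% with the methods' t-test. With sex from the labels it was 7.34%.

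The loss of 1 Hdac4 allele on the R6/2 background moved no enzyme past the threshold. In Dble::R6/2 against R6/2 cortex 0 of the 37 were called by limma, where 0.00666% of all probe sets were called, and at an unadjusted p below 0.05 limma picked 4 enzymes (10.8%), where it picked 5.68% of all probe sets, and the methods' t-test picked 5. The largest of these was Pdk2, a widely expressed pyruvate dehydrogenase kinase, at -0.53 (95% confidence interval -0.90 to -0.16, adjusted p = 0.789). It read 6.50 to 8.12 with a median of 6.93 in Dble::R6/2 mice and 7.01 to 7.97 with a median of 7.48 in R6/2 mice. Slc16a1 changed by 0.20 (0.06 to 0.34, adjusted p = 0.789), Pfkp by -0.12 (-0.22 to -0.02, adjusted p = 0.848) and Slc2a3 by -0.12 (-0.22 to -0.01, adjusted p = 0.869). For the 7 enzymes called in both transgene comparisons, the changes in Dble::R6/2 against R6/2 mice were 0.01 for Pfkm, 0.00 for Aldoc, -0.03 for Eno2, -0.10 for Ldha, -0.05 for Dlat, -0.04 for Mdh2 and -0.06 for Pdk3.

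Most enzymes were read by several probe sets, which the array designs against different stretches or splice forms of a transcript. The 37 enzymes had 88 probe sets in all, and 10 of the enzymes had a single one. In R6/2 against WT cortex 25 of the 88 were called (28.4%), 10 higher and 15 lower. Of all probe sets 26.9% were called there, 14.9% higher and 12.0% lower. The 51 probe sets that were not the brightest of their gene gave 3 higher and 10 lower, where the brightest gave 7 higher and 5 lower. The 51 gave 0 higher and 6 lower in Dble::R6/2 against Hdac4HET cortex, where 13.2% of all probe sets were called higher and 9.98% lower.

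For 3 of the enzymes called higher in R6/2 against WT mice, a dimmer probe set was called lower. The third probe set of Pfkp changed by -0.90 (SE 0.19, adjusted p = 0.00135), with values of 3.94 to 5.42 in R6/2 and 5.42 to 6.74 in WT mice. Both dimmer probe sets of Dlat changed the same way, by -0.38 (SE 0.11, adjusted p = 0.0105) and -0.37 (SE 0.12, adjusted p = 0.0314), against 0.33 on the brightest. For Cs, the third probe set changed by -0.43 (SE 0.12, adjusted p = 0.0122), against 0.18 on the brightest. No dimmer probe set of a called enzyme was called in the same direction as the brightest in R6/2 against WT mice. For these 3 enzymes the direction in R6/2 against WT mice depended on the probe set read.

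Of the enzymes not called on their brightest probe set, 8 had another probe set called in R6/2 against WT mice (Aldoa, Pdha1, Idh1, Idh3a, Ogdh, Sucla2, Mdh1 and Slc2a3) and 5 in Dble::R6/2 against Hdac4HET mice (Ldhb, Idh1, Sucla2, Mdh1 and Pfkfb3). A dimmer probe set was called lower in both comparisons for Idh1 (-0.31 in Dble::R6/2 and -0.33 in R6/2 mice), Sucla2 (-0.42 in Dble::R6/2 and -0.36 in R6/2 mice) and Mdh1 (-0.28 in Dble::R6/2 and -0.41 in R6/2 mice). The second probe set of Hk1 changed by -0.82 (adjusted p = 0.162) in R6/2 against WT mice, and by -0.40 (adjusted p = 0.00949) without R6/2 replicate 2, against 0.19 on the brightest.

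Pdha1, with a change of 0.01 on its brightest probe set, changed by -1.09 on its second (SE 0.19, adjusted p = 0.000314), with values of 6.56 to 7.86 in R6/2 and 7.58 to 8.95 in WT mice. The second probe set kept this direction without R6/2 replicate 2 (adjusted p = 0.000364) and without the 4 arrays high in Prl (-0.98, adjusted p = 0.0069). The third probe set of Pfkp was also still called without the arrays high in Prl (-0.77, adjusted p = 0.0164), whereas the dimmer probe sets of Dlat (-0.37, adjusted p = 0.0679, and -0.31, adjusted p = 0.185) and the third of Cs (-0.30, adjusted p = 0.108) were not. The dimmer probe sets of Pdha1 and Dlat were lower in Hdac4HET than in WT mice too, with changes of -0.70 (adjusted p = 0.0395), -0.35 (adjusted p = 0.0426) and -0.36 (adjusted p = 0.0372), a comparison that shares the WT arrays. So were the second probe set of Hk1 (-0.51, adjusted p = 0.0463) and the third of Slc2a3 (-0.49, adjusted p = 0.0206). In Hdac4HET against WT mice 3.91% of all probe sets were called, and 0.0111% without the 4 arrays high in Prl. On the probe sets of Pdha1 and Dlat the WT mice stood above the other 3 genotypes. The means of the second probe set of Dlat, for instance, were 8.52 in Dble::R6/2, 8.48 in R6/2, 8.51 in Hdac4HET and 8.86 in WT mice. In Dble::R6/2 against Hdac4HET mice, which shares none of them, the probe sets changed by -0.05 for Pdha1, by 0.00 and -0.00 for Dlat, by -0.23 for Pfkp and by -0.06 for Cs, and none was called. Pfkm, Eno2, Ldha and Pdk3 had a single probe set each, and Ogdh was called lower on both of its probe sets in Dble::R6/2 against Hdac4HET mice (-0.19 and -0.40).

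**Figure D4:**
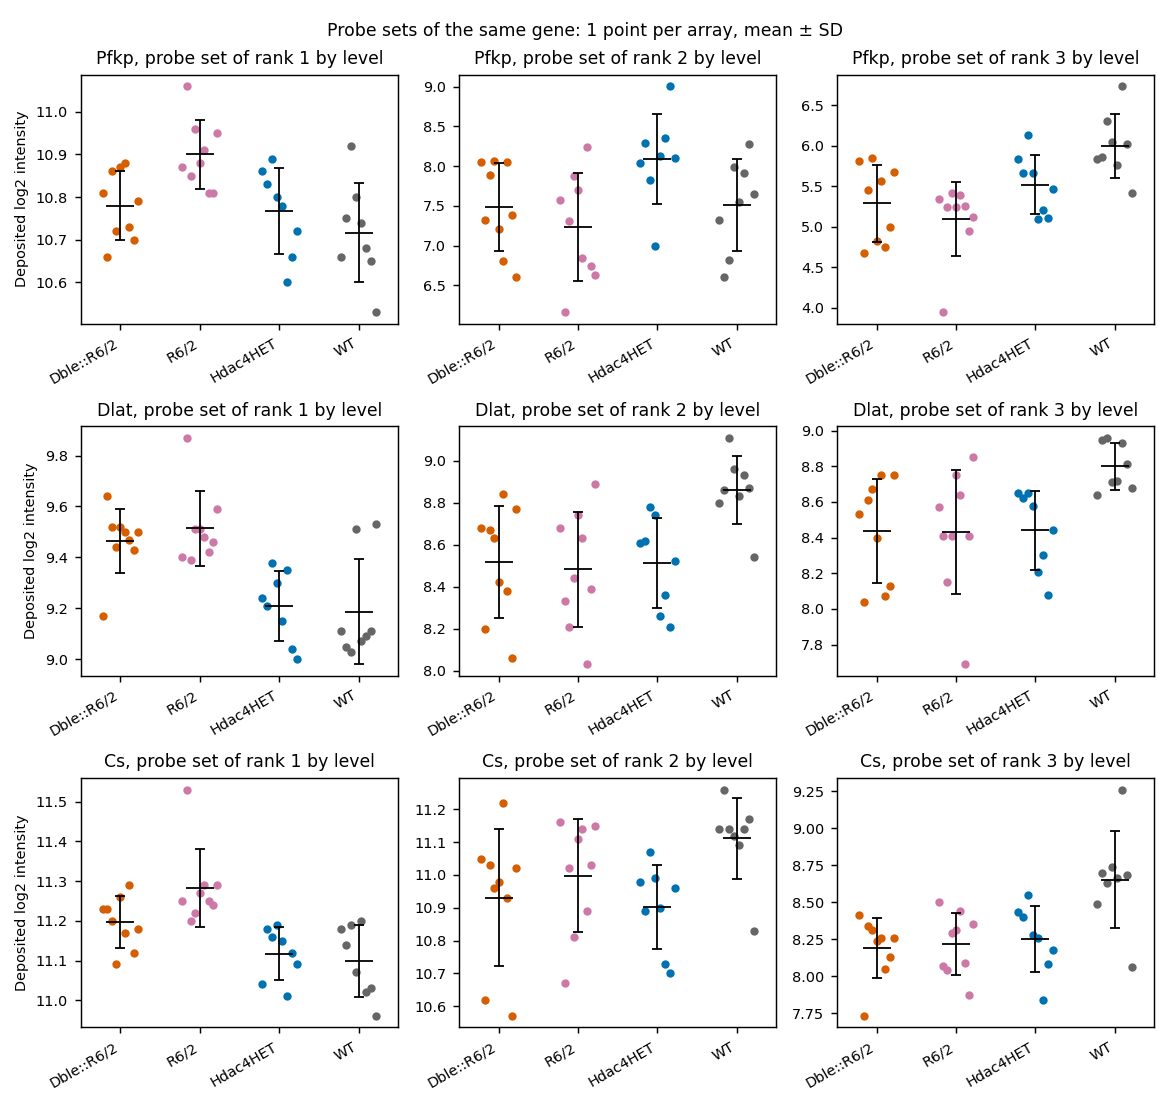
Log2 signal in every array (1 point each, black lines mean ± SD) on the 3 probe sets of Pfkp, Dlat and Cs, ordered by level from left to right, by genotype (Dble::R6/2, R6/2, Hdac4HET, WT). On the brightest probe set of each gene R6/2 arrays lie above WT arrays in the mean, and on the third they lie below, by 0.90 for Pfkp, 0.37 for Dlat and 0.43 for Cs.

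A list of 54 further genes of glycolysis, the pentose phosphate pathway, pyruvate handling, the TCA cycle and the malate and glycerol phosphate shuttles had 47 measured members. In R6/2 against WT cortex 19 of the 47 were called (40.4%), 10 higher and 9 lower, where 26.9% of all and 41.5% of the brighter probe sets were. In Dble::R6/2 against Hdac4HET cortex 16 were called (34.0%), 8 higher and 8 lower, where 23.1% of all and 36.9% of the brighter probe sets were. The count in R6/2 against WT cortex was 14 without the 4 arrays high in Prl, and that in Dble::R6/2 against Hdac4HET cortex was 12 without the 3 arrays high in choroid plexus markers. The median size of change over the 47 was 0.14 in Dble::R6/2 against Hdac4HET mice and 0.20 in R6/2 against WT mice, with a median within-genotype SD of 0.17. A change above 30% was called for 7 of the 47 in R6/2 against WT mice (14.9%), where 6299 of all 45037 probe sets and 21.9% of the brighter ones were.

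Pdp1, the phosphatase that switches the pyruvate dehydrogenase complex on, opposite to the kinases, fell furthest. It read 8.87, 9.39 and 9.63 at its lowest, median and highest in Dble::R6/2 mice and 10.44, 10.63 and 10.80 in Hdac4HET mice. In R6/2 mice it read 9.20, 9.39 and 9.56 and in WT mice 10.46, 10.70 and 10.94. The transgenic and non-transgenic arrays were apart in both comparisons, and the changes were -1.27 (SE 0.09, adjusted p = 1.02e-08) in Dble::R6/2 against Hdac4HET mice and -1.33 (SE 0.07, adjusted p = 4.14e-10) in R6/2 against WT mice. The phosphatase Pdp2 (-0.00 in Dble::R6/2 and 0.13 in R6/2 mice) and the phosphatase regulatory subunit Pdpr (-0.06 in Dble::R6/2 and 0.25 in R6/2 mice) were called in neither comparison. The kinase Pdk4 was called higher in Dble::R6/2 against Hdac4HET mice (0.48, adjusted p = 0.0414) and changed by -0.02 (adjusted p = 0.967) in R6/2 against WT mice. Without Hdac4HET replicate 7 its call was lost (0.42, adjusted p = 0.0852).

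Hkdc1, a hexokinase-like gene, changed by -0.74 in Dble::R6/2 against Hdac4HET mice (adjusted p = 3.45e-05) and by -0.96 in R6/2 against WT mice (adjusted p = 9.78e-07). Slc16a7, the lactate and pyruvate carrier MCT2 of neurons, changed by -0.53 (adjusted p = 0.000933) and by -0.60 (adjusted p = 8.41e-05) in the same comparisons. Pgd, the phosphogluconate dehydrogenase of the pentose phosphate pathway, rose by 0.46 (adjusted p = 0.00145) in Dble::R6/2 against Hdac4HET mice and by 0.64 (adjusted p = 5.35e-05) in R6/2 against WT mice. Pfkfb2, a relative of Pfkfb3 that also sets the activator of phosphofructokinase, changed by -0.28 (adjusted p = 0.0106) in Dble::R6/2 against Hdac4HET mice and by -0.37 (adjusted p = 0.000782) in R6/2 against WT mice. Mpc1, a subunit of the mitochondrial pyruvate carrier, changed by -0.21 (adjusted p = 0.401) in Dble::R6/2 against Hdac4HET mice and by -0.72 (adjusted p = 0.000239) in R6/2 against WT mice, and by -0.47 (adjusted p = 0.0334) in Hdac4HET against WT mice. Gpd1, the cytosolic glycerol phosphate dehydrogenase, changed by -0.21 (adjusted p = 0.0559) in Dble::R6/2 against Hdac4HET mice and by -0.40 (adjusted p = 0.0124) in R6/2 against WT mice.

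Pgam2, the muscle phosphoglycerate mutase, changed by -0.66 (adjusted p = 0.00223) in Dble::R6/2 against Hdac4HET mice and by -0.60 (adjusted p = 0.000285) in R6/2 against WT mice. Without Hdac4HET replicate 7, the array with muscle transcripts, its change in Dble::R6/2 against Hdac4HET mice was -0.55 (adjusted p = 0.00261). Chosen after their values were seen, Slc2a1, the glucose transporter GLUT1, rose by 0.50 (adjusted p = 2.97e-05) in Dble::R6/2 against Hdac4HET mice and by 0.28 (adjusted p = 0.00168) in R6/2 against WT mice, and Eno3, the muscle enolase, changed by -0.64 (adjusted p = 0.00214) and by -0.24 (adjusted p = 0.105) in the same comparisons. Without Hdac4HET replicate 7 the change of Eno3 in Dble::R6/2 against Hdac4HET mice was -0.52 (adjusted p = 0.00119). In Hdac4HET against WT mice 3 of the 47 were called (6.38%), Pdpr and Acly higher and Mpc1 lower, where 3.91% of all probe sets were. Without the 4 arrays high in Prl 0 of the 47 were called there. In Dble::R6/2 against R6/2 mice 0 were called, with 0 at an unadjusted p below 0.05.

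**Figure D5:**
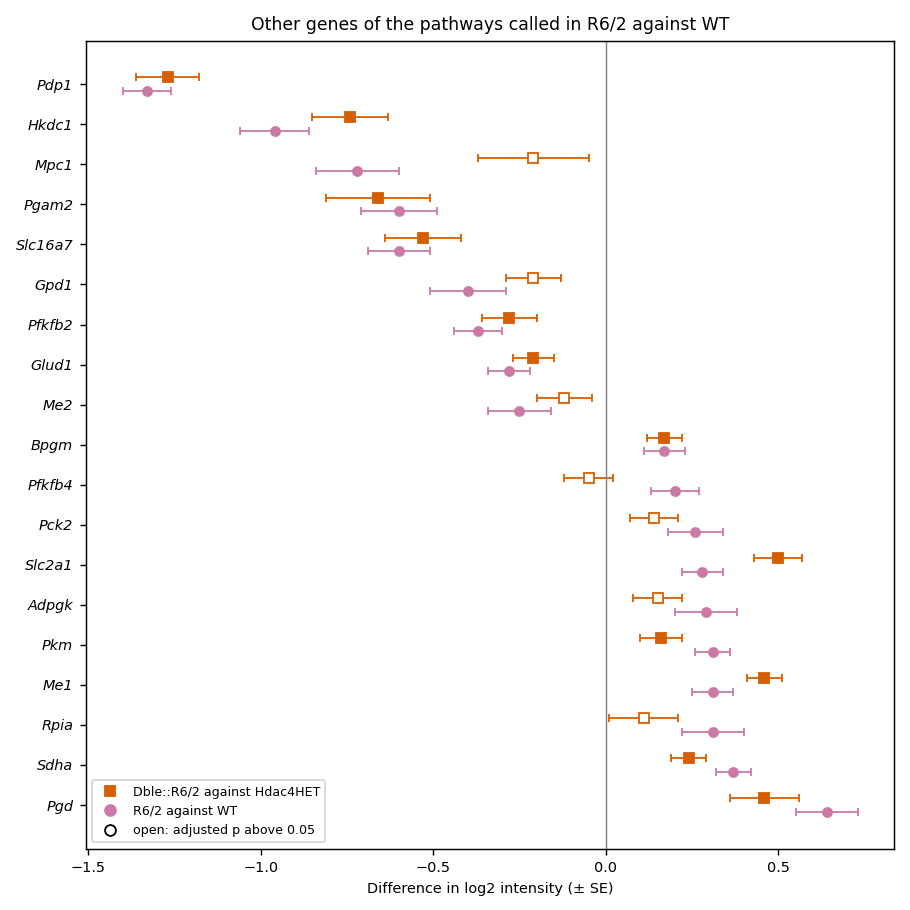
Change (log2) of the 19 further pathway genes called in R6/2 against WT cortex, in Dble::R6/2 against Hdac4HET and in R6/2 against WT cortex, with the SE as bars and filled points where the gene was called. Pdp1 lies farthest from 0 in both, at -1.27 in Dble::R6/2 and -1.33 in R6/2 mice.

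Markers of neurons, astrocytes, microglia and oligodendrocytes were called lower in both transgene comparisons, and those of endothelium were not. Of all probe sets 12.0% were called lower in R6/2 against WT and 9.98% in Dble::R6/2 against Hdac4HET mice. Of 5 endothelial markers 1 was higher and 0 lower in R6/2 against WT mice, and 0 were called in Dble::R6/2 against Hdac4HET mice. Of 6 neuronal markers 5 were lower and 0 higher in each transgene comparison, and the mean over the 6 ranged from 11.31 to 11.68 in Dble::R6/2, 11.20 to 11.75 in R6/2, 11.76 to 12.02 in Hdac4HET and 11.83 to 12.02 in WT arrays. Of 7 astrocyte markers 5 were lower in each and Gfap, an intermediate filament of reactive astrocytes, was higher in R6/2 against WT mice (0.58, adjusted p = 0.0149) and changed by 0.10 (adjusted p = 0.791) in Dble::R6/2 against Hdac4HET mice, and their mean ranged from 9.44 to 9.72 in Dble::R6/2, 9.51 to 9.73 in R6/2, 9.95 to 10.16 in Hdac4HET and 9.87 to 10.17 in WT arrays. Eno2 and Aldoc fell beside these lists. Slc2a3, the neuronal glucose transporter, did not, with changes of 0.11 in R6/2 against WT and -0.01 in Dble::R6/2 against Hdac4HET mice. Of 6 microglial markers 5 were lower in Dble::R6/2 against Hdac4HET and 4 in R6/2 against WT mice, and of 5 oligodendrocyte markers 3 were lower in Dble::R6/2 against Hdac4HET and 2 in R6/2 against WT mice. The part of cell composition in the changes of the enzymes was not tested.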

How the data were processed

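RNA of the cortex of 34 mice was hybridised to Affymetrix 3′ arrays after the authors' quality control of the arrays, and log2 intensities per probe set were deposited. The summary and normalization method is not given in the sources used here, and the deposited values were used as deposited (lowest 2.04, highest 14.1). Of 45037 probe sets, 34945 carried 1 gene symbol, 932 several and 9160 none. Genotypes were taken from the labels. For each pair of genotypes, a moderated linear model (limma 3.58.1, R 4.3.3) was fitted to the arrays of both with Benjamini-Hochberg adjustment over all probe sets and a threshold of 0.05, and the difference between transgene effects was tested as an interaction over all 4 genotypes. The fit was tested on simulated data. The number of arrays limits the precision. The enzymes and gene lists were chosen with earlier results of these data known. Every group's lowest, median and highest array is given for enzymes called in both transgene comparisons past 0.26 (1.20-fold) and for those called in another comparison, with values of other enzymes added after they were seen, and of the further pathway genes the 8 with the largest change in R6/2 against WT mice were named, with a few others chosen after their values were seen. Alternatives changed the normalization, probe set filter, sex covariate, blocking, test, weights, probe set choice and arrays used. Figures were drawn with matplotlib 3.10.9.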

Additional observations from a re-analysis of the deposited data

Results flagged for a closer look

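Of 148 groups of arrays tested (37 enzymes in 4 genotypes), 14 held an array whose gap to its nearest neighbour was large against the range of its group, where chance flags about 1 in 20 groups. In R6/2 replicate 2, the array with epidermal transcripts, 10 enzymes stood apart. The lowest of the R6/2 arrays there were Pfkm at 9.98, Pdha1 at 10.90 and Dlst at 9.06. The highest were Dlat at 9.87, Cs at 11.53, Idh1 at 10.25, Idh3g at 11.56, Mdh2 at 12.67, Pdk1 at 9.49 and Slc2a3 at 11.52. Without this array 13 enzymes were called in R6/2 against WT mice, the 12 named above and Dlst, where 28.2% of all probe sets were called. Dble::R6/2 replicate 1 was lowest in its group for Aldoc (12.62) and Dlat (9.17), and Dble::R6/2 replicate 2 was highest for Pdk2 (8.12). WT replicate 5 was highest in its group for Fh1 (10.08). The cause of these values was not tested.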

How the results depend on the processing

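The 12 enzymes called in R6/2 against WT mice became 6 with the replicate block (the replicate number as a block), where 25.2% of all probe sets were called. They became 7 when each gene's probe sets were averaged, where 31.8% of all 18193 genes were called. Without the 4 arrays high in Prl they became 4, where 17.9% of all probe sets were called, and 11 to 13 under the other planned settings. With each gene's probe sets averaged, 4 called enzymes turned negative (Hk1 -0.32, Pfkp -0.33, Dlat -0.14 and Cs -0.12), and Aldoc was not called in either transgene comparison. Fits without 1 array were added after seeing the data and gave 9 (without WT replicate 6) to 13 enzymes. In Dble::R6/2 against Hdac4HET mice the count was 8, with 7 to 11 under the planned settings, 7 to 10 without 1 array and 7 without the 3 Dble::R6/2 arrays high in choroid plexus markers (both added after seeing the data). The 2 enzymes called in Hdac4HET against WT mice became 0 with sex read from Xist, the replicate block, a joint fit of all 4 genotypes, averaged probe sets, the methods' t-test, and without the arrays high in Prl, 1 with array weights, and 0 to 3 without 1 array (3 without WT replicate 8). The 3 further pathway genes called there became 5 with brighter probe sets only or sex from the labels, 1 with the replicate block, 0 with sex read from Xist, the joint fit, the t-test and without the arrays high in Prl, and 0 to 9 without 1 array (9 without WT replicate 8). No enzyme was called in Dble::R6/2 against R6/2 mice or for the interaction under any setting. Ldha, Mdh2 and Pdk3 in R6/2 against WT, and Pfkm, Eno2, Ldha, Ogdh and Pdk3 in Dble::R6/2 against Hdac4HET mice, were called under every planned setting. Same-numbered arrays of different genotypes correlated in their deviations by -0.35 to 0.45, so the numbers were not taken to pair mice. Apart from the alternatives' own construction, the causes of these shifts were not tested.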
